A study of Saccharomyces cerevisiae with 21 samples.

Results

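The genes described here place and build the yeast bud, and were followed through a time course of cells whose B-type cyclin genes are disrupted. They are CDC42, CDC24, BEM1, GIC1, GIC2, RSR1, BUD2, BUD5, AXL2 and BNI1, chosen by symbol as 10 of the 7126 genes and other loci in the table, and all 10 were found. RNA from Saccharomyces cerevisiae was sequenced in 21 libraries, 1 for each time from 0 to 200 min in steps of 10 min, with no replicates. All came from 1 strain of the BF264-15D background that is MATa with bar1::hphMX4 and arg4. Its B-type cyclin alleles are clb1::URA3 and clb2::LEU2, then clb3::TRP1 and clb4::HIS2, and lastly clb5::ARG4 and clb6::ADE1. It also carries PGAL1-CLB1::LEU2, a CLB1 copy under the galactose-inducible GAL1 promoter. Cells growing in galactose medium (YEPGalactose) at 30 °C were held in G1 for 160 min with the mating pheromone alpha-factor at 30 ng/ml, then released into dextrose medium (YEPDextrose). Pheromone removal and the change of sugar coincide, so their effects cannot be told apart. Every time point shares the genotype, and no wild-type libraries were used here.

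Cdc42 is a small GTPase that marks the place where a yeast cell grows out a bud or a mating projection. A separate GTPase, Rsr1, links the landmark at the site of earlier divisions to the exchange factor Cdc24, which loads Cdc42 with GTP. The scaffold Bem1 holds Cdc24 next to active Cdc42. Active Cdc42 then binds effectors such as Gic1 and Gic2 and turns on the formin Bni1, which assembles the actin cables along which secretory vesicles reach the bud.

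Levels are in FPKM, which scales fragments to the length of the transcript and the size of the library, so they can be set side by side between genes. In bulk RNA, fewer cells expressing a gene and less RNA per cell cannot be told apart. Libraries summed to between 1212671 and 1911174 FPKM, with 680 to 822 loci at 0 in each. Without read counts, which were not used here, the depth and so the counting error of a value are unknown. Of the disrupted cyclin genes, CLB4 was listed at 0 in all 21 libraries. CLB1 fell from 293 FPKM at 0 min to 90.4 FPKM at 200 min, and CLB2 (38.1 to 93.3 FPKM), CLB3 (20.1 to 32.2 FPKM), CLB5 (22.2 to 80.4 FPKM) and CLB6 (1.84 to 160.3 FPKM) were all detected; the labels do not say how much of each gene its disruption leaves. BAR1, disrupted as well, lay between 1.34 and 3.18 FPKM. Of the markers of MATa cells, MFA1, MFA2, STE2 and AGA2 summed to 87100 FPKM at 0 min and to 4400 FPKM at 200 min, against 26.9 and 12.1 FPKM for the 3 alpha-cell markers. Among these 3, MF(ALPHA)1 never passed 1.14 FPKM, MF(ALPHA)2 was highest at 0 min with 20.6 FPKM, and STE3 lay between 4.58 and 11.9 FPKM. GAL1 fell from 1962 FPKM at 0 min to 87.1 FPKM at 180 min.

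Sequence upstream of the members is shown first because G1/S transcription in yeast is known to run through short promoter letters: the SCB (CACGAAA or CGCGAAA here), bound by the factor SBF, and the MCB (ACGCGT), bound by MBF. The pheromone response element (TGAAACA) is bound by Ste12. Both strands were searched in the R64 genome of the S288C reference strain, which is not the strain sequenced. In the 250 bases before the start codon, GIC2 held an SCB and BUD2 an MCB, and the other 8 members held none of the motifs; of 6007 genes, 7.08% held either SCB, 2.9% the MCB and 6.06% the pheromone element. In 600 bases, 4 members held an SCB, 3 held an MCB and CDC42 held the pheromone element, against 14.2%, 6.34% and 14.6% of 6005 genes. Each match is printed on the strand of its gene with 11 bases on either side, and capitals mark the motif; GIC2's SCB is on the opposite strand and so reads TTTCGTG.
GIC1, SCB, chrVIII:222752-222780 (minus strand): cgacgcgaattCGCGAAAagacaacaaca
GIC2, SCB, chrIV:1080319-1080347 (minus strand): ttgatggattgTTTCGTGtctggtatata
GIC2, MCB, chrIV:1080572-1080599 (minus strand): acccggcaaagACGCGTtctggcccctg
RSR1, SCB, chrVII:795732-795760 (minus strand): acattctcaaaCGCGAAAtatcgtcgaaa
BUD2, MCB, chrXI:269598-269625 (minus strand): ttcattcttgaACGCGTtctgttcgata
AXL2, SCB, chrIX:84972-85000 (plus strand): taattcaaagaCGCGAAAaaaaaagaaca
AXL2, MCB, chrIX:84990-85017 (plus strand): aaaaaagaacaACGCGTcatagaacttt
CDC42, pheromone element, chrXII:605070-605098 (minus strand): gcccttccaaaTGAAACAagatacgggaa

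The first base of the match lay 291 bases before the start codon in GIC1, 257 in RSR1, 155 in BUD2 and 300 in CDC42. In GIC2 the SCB began at 137 and the MCB at 389 bases, and in AXL2 the SCB began at 383 and the MCB at 365 bases. CDC24, BEM1, BUD5 and BNI1 held none of these letters in 600 bases. In the reference BUD5 overlaps MATALPHA2, while the strain sequenced is MATa, so the letters upstream of BUD5 may differ in that strain. A match is letters only and no binding was measured.

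**Figure D1:**
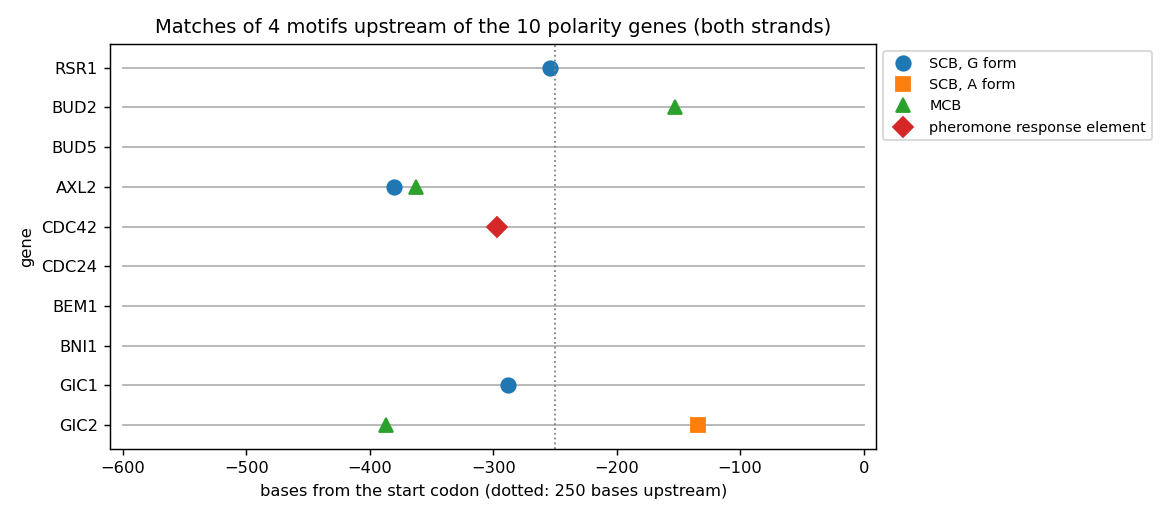
Positions of the SCB, MCB and pheromone response letters (markers) in the 600 bases before the start codon of each of the 10 genes, with distance from the start codon in bases on the x axis and a dotted line at 250 bases. Inside the line there is 1 match in GIC2 and 1 in BUD2, and 4 genes have no match at all.

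By mean FPKM over the course, CDC42 was the most abundant member at 512 FPKM, and BUD5 the least at 9.91 FPKM. Between them came GIC2 (186 FPKM), AXL2 (152 FPKM), RSR1 (148 FPKM), CDC24 (37.6 FPKM), GIC1 (29.3 FPKM), BNI1 (26.0 FPKM), BEM1 (25.7 FPKM) and BUD2 (22.1 FPKM). CDC42 stood above GIC2 in 21 of 21 libraries and BUD2 above BUD5 in 20 of them. AXL2 and RSR1 are not separated, since AXL2 was the higher in only 13 libraries, and nor are GIC1 and BNI1, with GIC1 the higher in 13. The other neighbours changed places in some libraries as well: GIC2 was above AXL2 in 17, RSR1 above CDC24 in 20, CDC24 above GIC1 in 18, BNI1 above BEM1 in 14 and BEM1 above BUD2 in 16. The coefficient of variation over time was smallest for CDC24, at 7.35%, and largest for AXL2, at 34.5%.

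**Figure D2:**
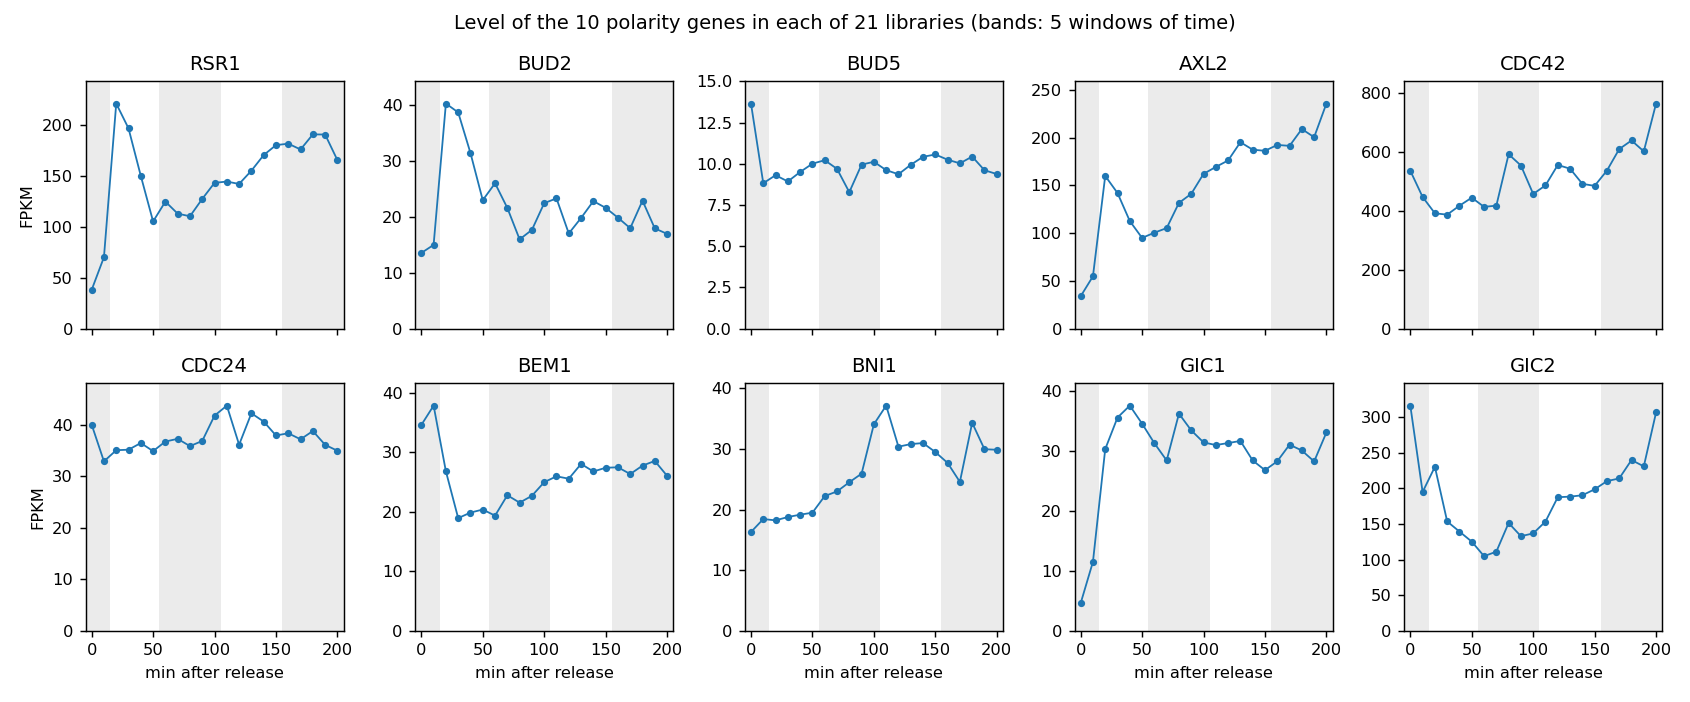
FPKM (y axis, from 0) of each of the 10 genes at each of 21 times (x axis, min after release), 1 library per point, with shaded bands for the 5 time windows. GIC1, RSR1, BUD2 and AXL2 are lowest at 0 min, GIC2 is highest there, and CDC24 stays between 32.9 and 43.8 FPKM.

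RNA of the bud-site genes RSR1, AXL2 and BUD2 and of the effector GIC1 rose between 0 to 10 and 20 to 50 min, to ratios of 2.20 to 4.23, while that of BEM1 and GIC2 fell, to ratios of 0.60 and 0.64. BUD2 fell again by 60 to 100 min, when BNI1 rose. By 160 to 200 min GIC2, AXL2, RSR1, CDC42 and BEM1 had risen from their levels at 60 to 100 min, by ratios of 1.22 to 1.88. CDC24 and BUD5 passed none of these tests. These ratios between windows, and those given with window differences below, are on the FPKM + 1 scale.

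Change over time was tested as a smooth curve through the 21 libraries (a natural cubic spline in limma), with p-values adjusted over 6198 loci, and a call needed an adjusted p under 0.05 together with a curve spanning 1 or more on the log2(FPKM + 1) scale (its fitted range). Neighbouring times of 1 culture are not independent replicates, so these p-values, and those of the windows below, are too small. GIC1, GIC2, RSR1, BUD2 and AXL2 were called, 5 of 10 members, where 44.8% of all loci were called; that share is near the background. Their fitted ranges were 2.82 for GIC1, 2.58 for AXL2, 2.16 for RSR1, 1.45 for BUD2 and 1.33 for GIC2, and the median range was 1.15 over the members against 0.99 over all loci. BEM1 (0.96), BNI1 (0.95) and CDC42 (0.91) passed the p threshold and fell short of the range, while CDC24 (0.21, adjusted p = 0.139 by limma) and BUD5 (0.37, adjusted p = 0.269) passed neither. Times were also grouped into windows of 0 to 10, 20 to 50, 60 to 100, 110 to 150 and 160 to 200 min, holding 2, 4, 5, 5 and 5 libraries, and compared in 1 limma fit at an adjusted p under 0.05. Comparisons that use the same window share its libraries.

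Library-wide shifts with gene length accompany the values. Relative to each gene's own mean, the median of 478 loci of 3000 bp or more minus that of 2321 loci under 1000 bp came to -0.38 log2 for the 0 min library, 0.28 for 110 min and 0.23 for 180 min. The members run from 576 bp (CDC42) to 5862 bp (BNI1). With a linear length trend removed from each library, every call of a member in the 3 window comparisons and over time was kept, and BNI1 joined those higher at the end of the course. For 0 min the slope removed was -0.037 log2 per doubling of length, small beside the -0.38 above. Its removal may leave part of the shift in place, so the kept calls are not shown to be free of it. Outside the members, no window difference was recomputed with the length trend removed. At 20 min the median of the long loci minus that of the short loci was 0.15 log2. BNR1 (4128 bp) and MYO2 (4725 bp) rose into the second window and PFY1 (590 bp) and TPM1 (600 bp) fell, but TPM2 (486 bp) rose. The source of the length shifts was not tested.

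Bud-site selection comes first in the order of events. Each of the 10 genes has 1 coding exon in the R64 annotation. RSR1 (YGR152C, chrVII:794674-795492, minus strand, R64) encodes the GTPase that links the landmark to Cdc24. It stood at 38.1 and 70.3 FPKM at 0 and 10 min, then at 221, 197, 150.2 and 105 FPKM from 20 to 50 min. From 60 to 100 min it lay at 125, 113, 111, 128 and 143 FPKM, from 110 to 150 min at 145, 142, 155, 171 and 180.4 FPKM, and from 160 to 200 min at 182, 176, 191, 191 and 166 FPKM. The 20 min library was the highest of all, and none of the later libraries came down to the level of the first 2. RSR1 rose from the first window to the second by 1.63 log2 (95% interval 1.15 to 2.11, a ratio of 3.09, adjusted p = 1.40e-05 by limma) with no overlap of the windows. The fall to 60 to 100 min, of -0.39 log2, did not pass (adjusted p = 0.1), but did without the 50 min library, the lowest of its window (-0.60, adjusted p = 0.00622). From there to the last window RSR1 rose by 0.55 log2 (0.20 to 0.90, adjusted p = 0.0138), again with no overlap. Without the 0 min library alone, RSR1 was not called over time (fitted range 0.87, adjusted p = 0.0584). Without both the 0 and 10 min libraries it was still called, with a fitted range of 1.04.

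AXL2 (YIL140W, chrIX:85366-87837, plus strand) encodes the transmembrane landmark of axial budding, the pattern of haploid cells. Its levels were 34.0 and 54.8 FPKM at 0 and 10 min, and 159.9, 142, 113 and 95.1 FPKM from 20 to 50 min. They were 101, 105, 132, 141 and 162 FPKM from 60 to 100 min, 169, 176, 195, 187 and 186 FPKM from 110 to 150 min, and 192, 191, 209, 201 and 236 FPKM from 160 to 200 min. Like RSR1 it had a first maximum at 20 min, but its second climb went past that maximum, from 100 min on. AXL2 rose by 1.51 log2 into the second window (1.08 to 1.94, a ratio of 2.85, adjusted p = 9.15e-06 by limma), differed by 0.01 log2 between 20 to 50 and 60 to 100 min (-0.32 to 0.34), and rose by 0.70 log2 into the last window (0.39 to 1.01, adjusted p = 0.00128). Neither rise had overlapping windows. Without the 0 min library the fitted range went from 2.58 to 1.49 (adjusted p = 0.000981).

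BUD2 (YKL092C, chrXI:266145-269459, minus strand) encodes the GTPase-activating protein of Rsr1, which returns it to the GDP-bound state. It was at 13.5 and 15.0 FPKM at 0 and 10 min, rose to 40.2, 38.6, 31.4 and 22.9 FPKM from 20 to 50 min, and lay at 26.0, 21.6, 15.9, 17.6 and 22.4 FPKM from 60 to 100 min. All later libraries lay between 16.9 and 23.3 FPKM. This first pulse passed the test in both directions: 1.14 log2 up (0.72 to 1.55, adjusted p = 0.000111 by limma), then -0.65 log2 (-0.97 to -0.33, adjusted p = 0.00459). The last window differed from 60 to 100 min by -0.10 log2 (-0.40 to 0.20), which did not pass (adjusted p = 0.615). A stiffer curve of 4 degrees of freedom gave BUD2 a fitted range of 0.82 and an adjusted p of 0.0547.

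BUD5 (YCR038C, chrIII:197621-199549, minus strand) encodes the exchange factor of Rsr1, the counterpart of Bud2. It was at 13.6 FPKM at 0 min and between 8.28 and 10.6 FPKM in the 20 libraries that followed. Its first window was 0.20 log2 above the second (difference -0.20, -0.46 to 0.06, adjusted p = 0.171 by limma), a value that rests on 0 min: the difference was -0.49 (adjusted p = 0.00127) with 0 min alone as the first window and 0.09 without it. BUD5 overlaps MATALPHA2 on the same strand in the reference annotation, and MATALPHA2 was listed at 0 in all libraries.

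In the module of the GTPase, its exchange factor and its scaffold, none of the 3 genes was called over time, where 44.8% of all loci were. CDC42 (YLR229C, chrXII:604212-604787, minus strand) stood at 535 and 447 FPKM at 0 and 10 min, and at 391, 387, 417 and 444 FPKM from 20 to 50 min. It was at 413, 417, 591, 553 and 457 FPKM from 60 to 100 min, at 486, 555, 542, 491 and 484 FPKM from 110 to 150 min, and at 536, 609, 638, 601 and 763 FPKM from 160 to 200 min. The 200 min library was the highest and 30 min the lowest, a ratio of 1.97. CDC42 did not overlap between the first 2 windows, but the difference of -0.26 log2 (-0.56 to 0.05) did not pass (adjusted p = 0.142 by limma). It rose by 0.38 log2 from 60 to 100 min to the last window (0.15 to 0.60, adjusted p = 0.00866), with overlapping values.

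CDC24 (YAL041W, chrI:62840-65404, plus strand) encodes the exchange factor that activates Cdc42. Its lowest, median and highest values were 32.9, 36.9 and 43.8 FPKM. None of the 3 window differences passed 0.09 log2 in size, and the widest of their 95% intervals ran from -0.22 to 0.15. BEM1 (YBR200W, chrII:620872-622527, plus strand), the scaffold, started at 34.6 and 37.8 FPKM and went to 26.8, 18.9, 19.9 and 20.4 FPKM from 20 to 50 min. It lay between 19.3 and 25.0 FPKM from 60 to 100 min and between 25.5 and 28.5 FPKM in the 10 libraries from 110 min. BEM1 fell by 0.74 log2 into the second window (-0.97 to -0.51, a ratio of 0.60, adjusted p = 2.75e-05 by limma) and rose by 0.28 log2 from 60 to 100 min to the end (0.11 to 0.45, adjusted p = 0.00953), with no overlap in either case. It did not return to its first 2 values.

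GIC1 and GIC2 are paralogous Cdc42 effectors that act together in budding, and their RNAs started from opposite ends. GIC1 (YHR061C, chrVIII:221534-222478, minus strand) was at 4.59 and 11.5 FPKM at 0 and 10 min, at 30.3, 35.6, 37.6 and 34.5 FPKM from 20 to 50 min, and between 26.8 and 36.2 FPKM in the other 15 libraries. GIC2 (YDR309C, chrIV:1079048-1080199, minus strand) was at 316 and 195 FPKM at 0 and 10 min, at 230.1, 153, 139 and 125 FPKM from 20 to 50 min, and at 105, 111, 151, 133 and 137 FPKM from 60 to 100 min. It then climbed through 153, 187, 188, 190.2 and 199 FPKM from 110 to 150 min to 210.0, 214, 239.6, 231 and 306 FPKM from 160 to 200 min. GIC1 rose into a plateau that it kept, and GIC2 drew a trough between 2 high ends.

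In numbers, GIC1 rose by 2.08 log2 into the second window (1.68 to 2.48, a ratio of 4.23, adjusted p = 1.60e-07 by limma) with no overlap, and the later differences were -0.10 (-0.41 to 0.21) and -0.09 (-0.38 to 0.21). Its call over time rested on the first 2 libraries: without 0 min the fitted range was 1.37 (adjusted p = 0.00185), and from 20 min on it was 0.29 (adjusted p = 0.175). GIC2 fell by 0.65 log2 (-1.11 to -0.19, adjusted p = 0.017 by limma), with overlapping windows, and the difference was -0.30 (adjusted p = 0.376) without 0 min and -1.0 (adjusted p = 0.00326) without 10 min. Its next step, of -0.32 log2, did not pass (adjusted p = 0.162). GIC2 rose by 0.91 log2 into the last window (0.57 to 1.25, a ratio of 1.88, adjusted p = 0.000284), with no overlap. The ratio of GIC2 to GIC1 in FPKM was 68.8 at 0 min, 7.59 at 20 min, lowest at 60 min with 3.35, and 9.26 at 200 min. The proteins translated from the R64 reference have 314 (GIC1) and 383 (GIC2) residues, of which 294 pairs align and 126 (42.9%) are identical. Between the GTPases CDC42 (191 residues) and RSR1 (272 residues), 52 of 175 aligned pairs (29.7%) are identical, and both end in the CAAX box that carries the membrane lipid.

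BNI1 (YNL271C, chrXIV:129522-135383, minus strand), the formin, began at 16.3 and 18.4 FPKM and held at 18.2, 18.8, 19.2 and 19.5 FPKM from 20 to 50 min. It went on to 22.2, 23.0, 24.5, 25.9 and 34.1 FPKM from 60 to 100 min, reached 37.2 FPKM at 110 min, and lay between 24.6 and 34.3 FPKM afterwards. BNI1 did not pass in the second window (0.12 log2, -0.18 to 0.41) and was the 1 member called higher between 20 to 50 and 60 to 100 min, by 0.42 log2 (0.19 to 0.65, adjusted p = 0.0078 by limma), with no overlap. Its 3 highest values were in the libraries at 100, 110 and 180 min, in which long genes as a class stood highest. With the linear length trend removed, which may leave part of that shift, the rise was 0.42 log2 (adjusted p = 0.00334 by limma). Into the last window the difference was 0.18 log2 (adjusted p = 0.18), and 0.28 (adjusted p = 0.017) without the 100 min library.

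**Figure D3:**
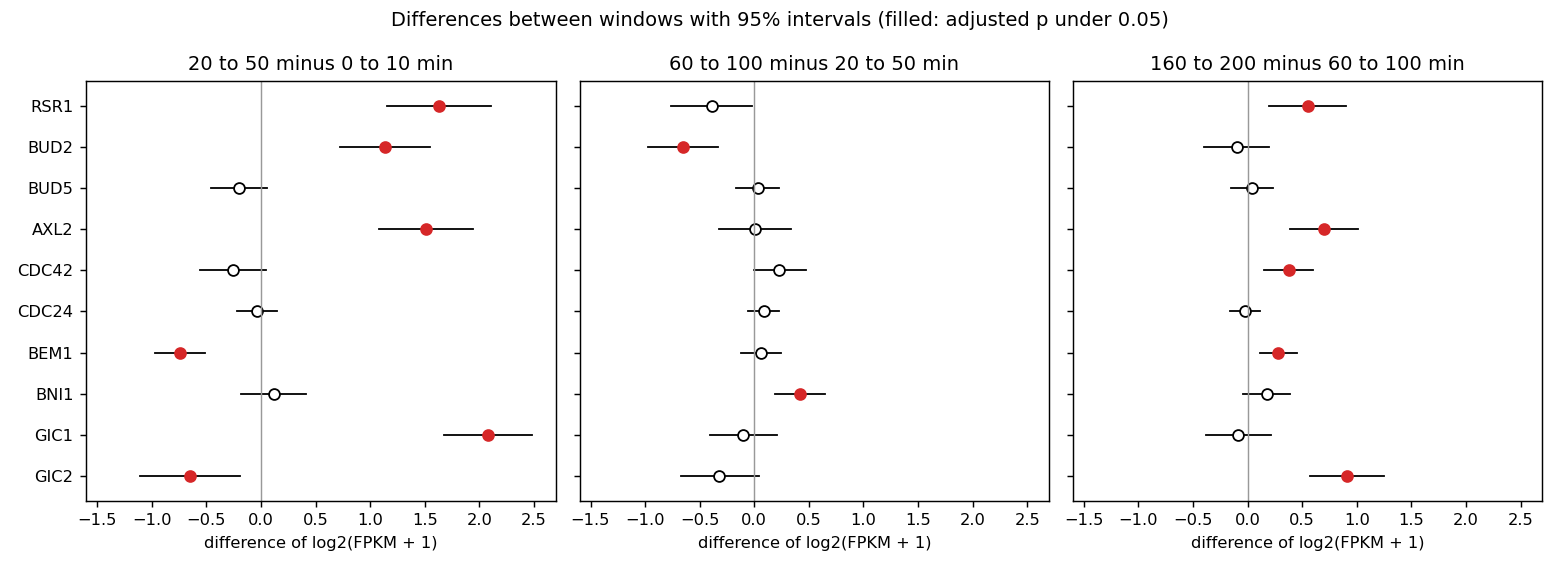
Differences of log2(FPKM + 1) between windows (x axis) for the 10 genes, in 3 panels, with 95% intervals as bars and filled points at an adjusted p under 0.05. GIC1, RSR1, AXL2 and BUD2 lie right of 0 in the first panel and BEM1 and GIC2 left of it, and 5 genes lie right of 0 in the last.

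Counted together, 4 members were higher at 20 to 50 min than at 0 to 10 min, where 25.7% of all loci were, and 2 were lower, where 30.5% were. Between 20 to 50 and 60 to 100 min, BNI1 was higher and BUD2 lower, against 15.6% and 14.7% of loci. From 60 to 100 min to 160 to 200 min, CDC42, BEM1, GIC2, RSR1 and AXL2 were higher, 5 of 10 members against 21.5% of loci, and none was lower against 18.8% of loci; at an unadjusted threshold of 0.05 no member was lower by limma either. The median difference over the members in that comparison was 0.23 log2, beside 0.03 over all loci, and in the first 2 comparisons it was 0.04 and 0.02 beside -0.03 and 0.01. Scaling every library to a common median moved the median of all loci by under 0.1 log2 in each comparison.

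For some pairs of members, how alike their courses were depended on the first 2 libraries, and for other pairs it did not. Over 21 libraries, Pearson's r of log2(FPKM + 1) was 0.91 for RSR1 with AXL2, 0.81 for GIC1 with RSR1 and 0.77 for GIC1 with AXL2. Without 0 and 10 min (19 libraries, a choice made after the values were seen) these became 0.69, -0.37 and -0.44. GIC2 with AXL2 went the other way, from 0.09 to 0.89, and BEM1 with AXL2 from -0.20 to 0.85. BEM1 with GIC2 (0.72 and 0.75), BEM1 with GIC1 (-0.71 and -0.71), AXL2 with BNI1 (0.75 and 0.68) and CDC42 with BUD2 (-0.67 and -0.79) held in both. All these points share libraries and neighbouring times, and are given as descriptions.

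Among 5439 loci of at least 300 bp, the 3 most like each called member by r over the 21 libraries were named. For GIC1 they were NRM1 (0.979), NUD1 (0.977) and SHE1 (0.976), whose r from 20 min on was 0.634, 0.335 and 0.656. For RSR1 they were TOS4 (0.976), HSL1 (0.967) and MCD1 (0.966), and from 20 min on all 3 stayed at 0.925 or more. AXL2 was most like SPC29 (0.964), SVS1 (0.960) and RBG2 (0.952). BUD2 was most like SPC110 (0.957), ILM1 (0.948) and GEA2 (0.946), and GIC2 most like FLC2 (0.945), IAH1 (0.934) and SRV2 (0.926). TOS4 and MCD1 shared RSR1's lowest time, 0 min, and its highest, 20 min, with ranges of 4.65 to 161 and 4.66 to 217 FPKM. FLC2 and IAH1 shared GIC2's highest time, 0 min, and were lowest at 50 min.

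The G1 cyclins were set beside the members as a reference for time; CLN1, CLN2 and PCL1 are known SBF and MBF targets, and Cln-Cdc28 activity triggers budding. CLN1 was at 8.92 FPKM at 0 min and highest at 20 min, with 243 FPKM, and CLN2 went from 32.5 FPKM to 234 FPKM over the same step. PCL1 started at 6.89 FPKM and was highest at 190 min, with 403 FPKM. The 3 rose into the second window by 2.99, 1.62 and 2.57 log2 (adjusted p = 4.20e-06, 6.34e-05 and 0.00109 by limma). RSR1, BUD2 and, up to 90 min, AXL2 had the same time of highest value, 20 min, as CLN1 and CLN2. The other members were highest at other times: GIC2 at 0 min, BEM1 at 10 min, GIC1 at 40 min, CDC24 and BNI1 at 110 min, CDC42 at 200 min and BUD5 at 0 min. PCL2 fell by 0.67 log2 (adjusted p = 0.00622), from 408 FPKM at 0 min. All 4 G1 cyclins were called over time, where 44.8% of all loci were. PCL1 had a range of 4.55 that became 1.57 without 0 min. CLN1 and CLN2 were not called without the 0 min library alone (adjusted p = 0.107 and 0.121). Without both the 0 and 10 min libraries CLN1 and CLN2 were called, with ranges of 1.45 and 1.24.

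Beyond the members, 41 other polarity genes in 6 lists were measured, and 19 of them (46.3%) were called over time, close to the 44.8% of all loci; their median fitted range was 0.79. In the first comparison 16 were higher and 8 lower, against 25.7% and 30.5% of all loci. In the second they numbered 3 and 11, against 15.6% and 14.7%, and in the third 8 and 7, against 21.5% and 18.8%. Of 5 genes that switch Cdc42 off or extract it from membranes (GAPs and the GDI), 3 were called, each highest at 0 min on the fitted curve: RGA2 with a range of 1.26, RGA1 with 1.22 and RDI1 with 1.19. The highest measured value of RGA1, however, was at 20 min, with 51.8 FPKM beside 46.4 FPKM at 0 min. RGA2, a GAP, fell by 0.87 log2 into the second window (adjusted p = 9.04e-05 by limma) and rose by 0.48 into the last (adjusted p = 0.00207). RDI1, the GDI, changed by -0.50, -0.47 and then 0.50 log2 over the 3 comparisons (adjusted p = 0.0238, 0.0161 and 0.0055), with its lowest value, 203 FPKM, at 80 min and its highest, 592 FPKM, at 0 min. GIC2 had its lowest value at 60 min and its highest also at 0 min. The GAP gene BEM3 rose by 0.52 log2 in the second window (adjusted p = 0.0043). RDI1 was not called over time without 0 min (range 0.92), nor RGA2 without the first 2 libraries (0.77).

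Of 7 effector kinases and scaffolds 2 were called over time, where 44.8% of all loci were. SKM1, a kinase of the PAK family, went from 24.2 FPKM at 10 min to 102 FPKM at 180 min and rose by 0.91 log2 into the last window (adjusted p = 4.35e-05 by limma). BEM4, which acts with Cdc42 in bud emergence, had a range of 1.07, and 0.76 without 0 min. The better known kinases STE20 (30.7 to 42.3 FPKM) and CLA4 (18.3 to 36.9 FPKM) were not called, although CLA4 rose by 0.59 log2 into the last window (adjusted p = 0.00154).

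Polarisome and actin cable genes had 7 of 10 called over time, where 44.8% of all loci were. In the second window 6 were higher and 3 lower, against 25.7% and 30.5% of loci. BNR1, the other formin gene, rose by 1.15 log2 (adjusted p = 0.00276 by limma) from 7.78 FPKM at 0 min to 41.6 FPKM at 20 min, while BNI1 was at 16.3 and 18.2 FPKM at these times; the difference between the formin genes was not tested. MYO2, the myosin that carries vesicles along the cables, rose by 1.09 log2 (adjusted p = 5.69e-06). The profilin gene PFY1 fell by 1.11 log2 (adjusted p = 0.000193 by limma), and the tropomyosin gene TPM1 fell by 0.96 and later rose by 0.66 (adjusted p = 8.17e-05 and 0.000316). The other tropomyosin gene, TPM2, went the other way into the second window, up by 0.82 log2 (adjusted p = 0.00041). BNR1 and PFY1 were not called over time without the 0 min library alone (adjusted p = 0.0917 and 0.0695). Without the first 2 libraries BNR1 was called (range 1.34), PFY1 was not (0.79), and MYO2 fell short of the range (0.76).

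Landmark genes had the largest median range of the 6 lists, 1.81, and 5 of 7 were called over time, where 44.8% of all loci were. In the first comparison 4 were higher and 1 lower, against 25.7% and 30.5% of all loci. The second had 2 and 2, against 15.6% and 14.7%, and the third none and 1, against 21.5% and 18.8%. AXL1, which encodes a protease also needed for axial budding, was the 1 that went down throughout: it was highest at 0 min with 75.5 FPKM and fell in all 3 comparisons, with differences of -0.56, -0.32 and -0.43 log2 (adjusted p = 0.0038, 0.0415 and 0.00425 by limma). BUD3 (range 2.32) and BUD4 (2.07), of the axial landmark together with Axl2, rose into the second window by 1.38 and 1.07 log2 (adjusted p = 6.63e-05 and 0.000894 by limma) and again into 60 to 100 min by 0.50 and 0.62 (adjusted p = 0.0383 and 0.0165). AXL2 differed by 0.01 log2 between these windows, and its second called rise came after 60 to 100 min, where BUD3 and BUD4 differed by -0.08 and 0.18 (adjusted p = 0.718 and 0.417). RAX2, of the bipolar landmark, rose by 1.30 log2 (adjusted p = 3.43e-05) with later differences of 0.29 and 0.12 that did not pass, while BUD9 rose by 1.41 and fell by 0.53 (adjusted p = 2.98e-05 and 0.022). The range of RAX2 was 1.16 without 0 min and 0.62, no longer called, without the first 2 libraries. Without 0 min alone BUD9 was not called over time (0.75, adjusted p = 0.274), but without the first 2 libraries it was, with a range of 1.16. Differences between these genes were not tested.

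**Figure D4:**
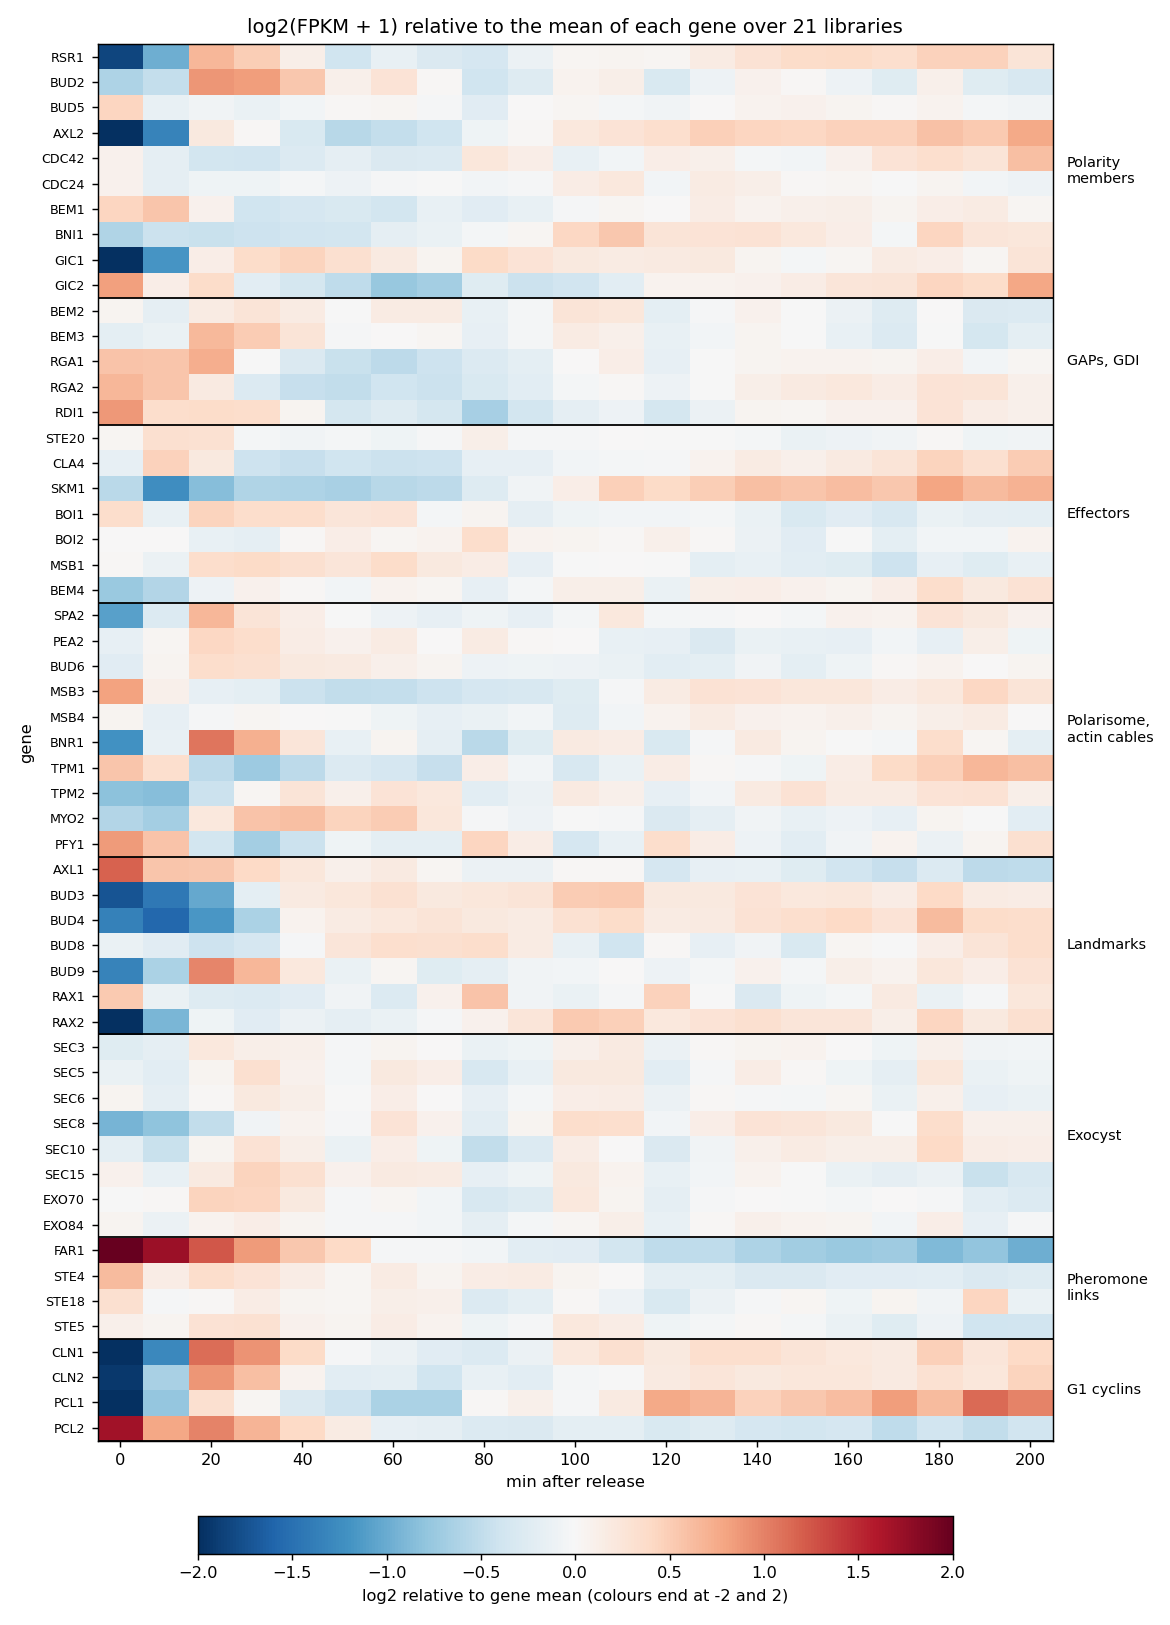
Each row is a gene (the 10 members, 41 other polarity genes and 4 G1 cyclins) and each column a library from 0 to 200 min, with colour for log2(FPKM + 1) relative to the gene's own mean, ending at -2 and 2. GIC1, RSR1, AXL2, BUD3, BUD4 and RAX2 are below their means at 0 and 10 min, and FAR1, RGA2 and GIC2 are above theirs at 0 min.

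In the other 2 lists 2 genes were called over time, where 44.8% of all loci were. Of 8 exocyst genes, whose complex tethers vesicles at the bud, 1 was called: SEC8, from 16.6 FPKM at 0 min to 41.7 FPKM at 180 min, with a range of 0.66 (adjusted p = 0.059) from 20 min on. Among 4 genes that tie the pheromone receptor to polarity, FAR1, which recruits Cdc24 to the receptor's G protein, had a range of 3.39 and fell in all 3 comparisons, with differences of -1.38, -0.87 and -0.71 log2 (adjusted p = 1.84e-05, 0.000708 and 0.000887 by limma). FAR1 ended at 17.2 FPKM against 210.3 FPKM at 0 min. STE4, STE18 and STE5 were not called over time, but STE4 (-0.36 log2, adjusted p = 0.00217) and STE5 (-0.32, adjusted p = 0.00342) also fell in the third comparison, so 3 of the 4 genes did, against 18.8% of loci.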

How the data were processed

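Per the labels, mRNA libraries were made with a stranded kit. Per the submitters' processing notes, STAR, Cufflinks, Cuffnorm and genome build R64 were used, with versions, annotation and strand setting not given in the sources used here. FPKM with 1 added is what the authors' deposited table holds, a unit inferred from the values (none under 1, sums that differ), and the 1 was subtracted. No 2 of 210 pairs of libraries held identical values. Of the loci, 6208 (87.1%) matched the R64 annotation. A deposited table of 50 wild-type columns from another series was not used here.

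The fits used limma 3.58.1 (R 4.3.3) on log2(FPKM + 1) (mean-variance trend, Benjamini-Hochberg) over 6198 loci of mean FPKM of at least 1. Time entered as a spline of 6 degrees of freedom and as 5 windows. The fits were tested on simulated data with independent noise in each library. That simulation cannot show how the dependence of neighbouring times affects the calls. All 10 members passed the minimum. Sequences were read with Biopython 1.88. Alternatives were pseudocounts of 0.1 and 5, no minimum, a common median, 4 degrees of freedom, narrower windows, each library left out, the first 2 left out, 600 bases in place of 250, and, added after seeing the data, removal of a length trend and correlations from 20 min on. The members, lists and tests were chosen with earlier results of these data known. All members were named, with up to 4 called genes per list of largest fitted range, the 3 loci most alike to each called member, and the label checks. AXL1, BEM3, STE20, CLA4, STE4, STE18, STE5 and TPM2 were added after their values were seen. A further list of genes is not reported here.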

Additional observations from a re-analysis of the deposited data

How the results depend on the processing

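No paired analysis was possible because each time point has 1 library. Leaving out each library in turn gave 4 to 6 members called over time, 4 higher and 1 to 3 lower in the first window comparison, 1 higher and 1 to 2 lower in the second, and 5 to 6 higher and none lower in the third. Narrower windows gave 2 members lower in the second comparison, BUD2 and RSR1. With 600 bases in place of 250, members with an SCB, an MCB and the pheromone element numbered 4, 3 and 1. Window differences whose sign turned were all small and uncalled with all 21 libraries. In the first comparison, CDC24 was at 0.03 log2 on a common median and at -0.17 to 0.10 with a library left out. BUD5 was at -0.49 to 0.09 with a library left out and at -0.52 with narrower windows, the larger falls having 0 min alone as the first window. In the second, narrower windows put BEM1 at 0.0 and AXL2 at -0.21, and leaving out libraries put AXL2 at -0.12 to 0.13. In the third, CDC24 was at 0.0 with narrower windows, 0.02 with the length trend removed and -0.04 to 0.01 with a library left out, and BUD5 at -0.01 to 0.06. The correlations of GIC1 with RSR1 (-0.37) and AXL2 (-0.44) turned from 20 min on. BNI1 reached a fitted range of 1.02 on a common median. The causes were not tested. With 1 library per time and depth unknown, no single library's value has an error of its own.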
